A study of Mus musculus with 6 samples.

Results

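The genes followed here are 36 genes, chosen by symbol, that mark the cells of brain blood vessels. Of them, 24 are genes of endothelial cells, 11 are genes of mural cells and 1, Col4a1, codes for a collagen of the basement membrane that both cell types share. All 36 were found among the 36008 genes measured. They were followed in RNA-seq of whole hippocampus from 3 WT mice and 3 Prmt9 KO mice on the B6J background, all female and 2 weeks old. Prmt9 codes for an arginine methyltransferase that acts on a splicing factor. In the Prmt9 KO mice, exon 5 of Prmt9, which is flanked by loxP sites in the floxed allele, had been deleted in the germline with a CMV-Cre line, so the vessels lacked it as well as the neurons. The WT mice were littermates of the same sex. Polyadenylated RNA was sequenced, and the mice are named by genotype and by the number in their labels, 1 to 3. Values of single mice are given in that order, WT first.

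Blood vessels of the brain are lined by endothelial cells joined by tight junctions, which carry transporters that decide what enters and leaves the tissue. This blood-brain barrier is induced by Wnt ligands from neural cells and is kept up by pericytes, the mural cells of capillaries, which the endothelium recruits through Pdgfb. Arterioles are wrapped instead by smooth muscle cells with a contractile apparatus. Vascular cells are a small part of hippocampal tissue, and in bulk RNA fewer cells of a type and less RNA per cell cannot be told apart.

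Most of these genes have more than 1 annotated transcript, and 4 of them, Flt1, Eng, Slc2a1 and Slco1c1, are shown by the sequence around the point at which their major annotated transcripts part. The pairs were chosen after their values were seen. Sequences are from GENCODE M21 (GRCm38) and run 5′ to 3′ on the coding strand, with 30 coding bases that both transcripts of a pair share in lower case and the coding bases that follow in each in capitals, up to 45. Flt1 codes for a receptor of VEGF, and a shorter form of it that lacks the membrane anchor acts as a decoy. The long and the short form are the same over 1972 coding bases, to position 147639225 of chromosome 5. The long form goes on in the next exon at position 147634523 for 2030 coding bases more, while the short form reads on into the adjoining intron and ends after 95 coding bases.

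Flt1 long form (ENSMUST00000031653): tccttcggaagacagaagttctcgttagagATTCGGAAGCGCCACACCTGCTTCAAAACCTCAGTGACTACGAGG

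Flt1 short form (ENSMUST00000110529): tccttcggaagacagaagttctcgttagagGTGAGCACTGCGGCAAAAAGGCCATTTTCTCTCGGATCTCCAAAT

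Eng codes for endoglin, a co-receptor of the TGF-beta family on endothelial cells. Its transcripts part after 1837 coding bases at position 32681297 of chromosome 2, where the long form joins the next exon at position 32681437 and the short form reads on, so that they differ in the end of the protein, with 125 and 89 coding bases left.

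Eng long form (ENSMUST00000009705): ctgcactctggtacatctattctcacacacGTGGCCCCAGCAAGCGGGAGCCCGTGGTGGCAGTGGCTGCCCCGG

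Eng short form (ENSMUST00000113272): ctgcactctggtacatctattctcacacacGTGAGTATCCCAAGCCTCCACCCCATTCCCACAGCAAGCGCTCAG

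Slc2a1 codes for GLUT1, the glucose transporter of the barrier, and Slco1c1 for a carrier of thyroid hormone. In each, the transcript called the decay transcript here is annotated as a target of nonsense-mediated decay, which removes mRNAs with a stop codon that comes too early. The decay transcript of Slc2a1 shares 516 coding bases with the coding transcript, to position 119132683 of chromosome 4, joins position 119133352 in place of 119133097 and stops 6 bases later. That of Slco1c1 shares 1391 coding bases with its coding transcript, to position 141555187 of chromosome 6, joins position 141559782 in place of 141559741 and stops 19 bases later.

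Slc2a1 coding transcript (ENSMUST00000030398): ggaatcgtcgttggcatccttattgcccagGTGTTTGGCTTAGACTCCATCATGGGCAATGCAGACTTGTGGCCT

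Slc2a1 decay transcript (ENSMUST00000174372): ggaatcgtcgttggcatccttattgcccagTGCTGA

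Slco1c1 coding transcript (ENSMUST00000032362): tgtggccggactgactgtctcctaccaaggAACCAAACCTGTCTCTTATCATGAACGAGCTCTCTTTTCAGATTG

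Slco1c1 decay transcript (ENSMUST00000135562): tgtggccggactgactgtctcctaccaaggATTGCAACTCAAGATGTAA

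The estimated counts summed to between 194098391 and 286771677 per mouse. The targeted gene, Prmt9, had 11.8, 15.3 and 15.0 TPM (a level scaled for transcript length and for the total within each mouse) in the WT mice and 3.93, 4.61 and 4.67 TPM in the Prmt9 KO mice, a KO mean of 31.5% of the WT mean, so its level went with the labels (exact two-sided permutation test, p = 0.1, the smallest that 3 mice against 3 allow; log2 fold change −1.71, 95% interval −1.95 to −1.47, adjusted p = 0.0327, edgeR). WT replicate 1 and KO replicate 1 stood apart from the other 4 mice on the first principal component of all genes, which held 67.4% of the variance. WT replicate 1 also had 37.4% of transcripts at 0, against 22.8% to 24.8% in the others. Mice of 1 number had deviations that went together across genes. So did a mouse numbered 2 of 1 genotype and a mouse numbered 3 of the other (correlations of 0.409 and 0.396). The numbers 2 and 3 are therefore not shown to pair mice. Results that rest on the mice numbered 1 are given with and without them.

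All 36 genes were detected in every mouse. The lowest level was 0.40 TPM, of Cnn1 in WT replicate 1, and the highest mean over the 6 mice was 91.5 TPM, of Vtn. The median of the 24 endothelial genes was 16.2 TPM and that of the 11 mural genes 11.9 TPM. Summed over the class, endothelial genes had 741, 626 and 676 TPM in WT and 704, 642 and 737 TPM in Prmt9 KO mice, that is 681 ± 58 and 694 ± 48 TPM (SD, n = 3 each). Mural genes summed to 220, 205 and 221 TPM in WT and to 245, 187 and 202.6 TPM in Prmt9 KO mice, or 215 ± 9 and 212 ± 30 TPM (SD, n = 3 each). The genotypes overlapped in both sums. The ratio of the endothelial to the mural sum was 3.16 ± 0.18 in WT and 3.32 ± 0.40 in Prmt9 KO mice (SD, n = 3 each), and these ranges overlapped too.

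**Figure D1:**
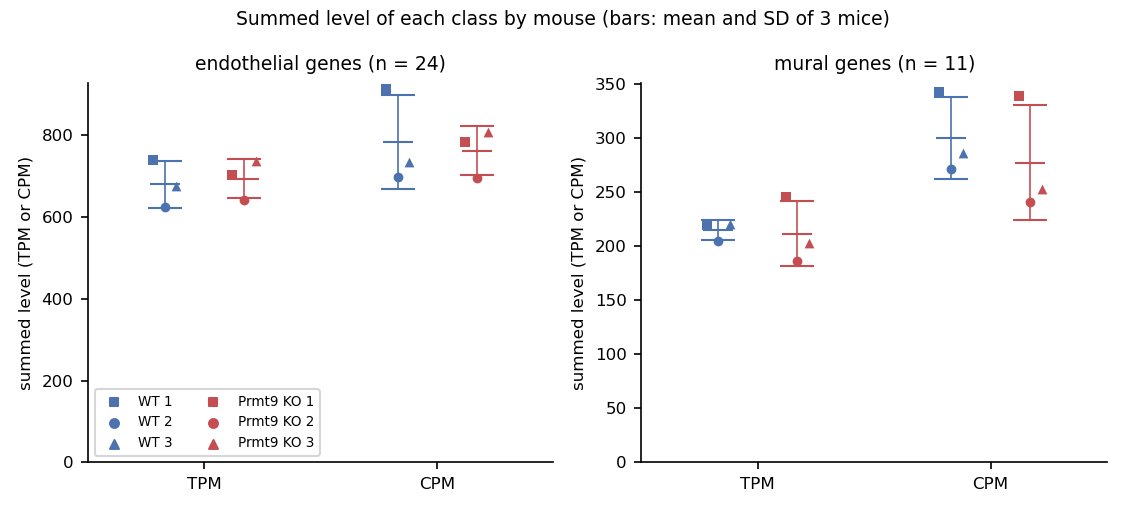
Summed level of the 24 endothelial and the 11 mural genes in each mouse, in TPM and in CPM (counts scaled to a library total adjusted by TMM, but not for length). Points are mice, horizontal marks and bars the mean and SD of 3 mice. The genotypes overlap in each sum, with endothelial sums of 626 to 741 TPM and mural sums of 187 to 245 TPM.

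Among the genes of endothelial junctions and surface, Cldn5, the main tight junction claudin of the barrier (ENSMUSG00000041378, chr16:18776847-18778262), had 107, 42.2 and 42.6 TPM in WT and 89.2, 37.1 and 45.3 TPM in Prmt9 KO mice. The mice numbered 1 were high in both genotypes and the genotypes overlapped. Pecam1, which codes for the adhesion protein CD31, was even in TPM, with 14.9, 13.5 and 15.3 TPM in WT and 15.8, 14.4 and 15.6 TPM in Prmt9 KO mice. In CPM it was higher in both mice numbered 1 than in the others. Cdh5, the VE-cadherin of adherens junctions, was the steadiest of the 36 genes in TPM, at 6.82, 7.37 and 7.54 TPM in WT and 7.04, 7.07 and 7.29 TPM in Prmt9 KO mice, with an SD of 0.053 on the log2 scale over the 6 mice. Emcn, a sialomucin of the endothelial surface, was also even in TPM, at 8.40, 8.79 and 9.74 TPM in WT and 7.96, 8.96 and 8.29 TPM in Prmt9 KO mice. Esam, Egfl7 and Itm2a had means of 28.9, 83.1 and 56.1 TPM.

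Among the endothelial receptors, Flt1 (chr5:147561604-147726011) had 7.19, 17.96 and 17.77 TPM in WT and 7.89, 14.8 and 20.5 TPM in Prmt9 KO mice, low in both mice numbered 1. Kdr, the main signalling receptor of VEGF, went the other way at 12.4, 9.71 and 10.1 TPM in WT and 12.9, 9.15 and 10.7 TPM in Prmt9 KO mice. Tek, the receptor of the angiopoietins, had 5.36, 6.84 and 7.25 TPM in WT and 6.48, 6.30 and 6.78 TPM in Prmt9 KO mice. In each of these 3 receptors the genotypes overlapped. Tie1, the partner receptor of Tek, and Eng had means of 7.30 and 19.2 TPM.

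Of the transporters, Slc2a1 (chr4:119108711-119137983) had 38.3, 65.6 and 72.4 TPM in WT and 37.7, 73.6 and 84.9 TPM in Prmt9 KO mice. Abcb1a, the efflux pump P-glycoprotein, had 5.29, 11.7 and 13.6 TPM in WT and 6.29, 12.9 and 16.1 TPM in Prmt9 KO mice. Slco1a4, a carrier of organic anions, had 16.9, 42.2 and 45.3 TPM in WT and 19.2, 41.7 and 52.9 TPM in Prmt9 KO mice. In all 3, both mice numbered 1 were below the other 4. Mfsd2a, the lipid carrier that also restrains transcytosis, had 44.5, 40.0 and 41.8 TPM in WT and 47.5, 45.4 and 55.9 TPM in Prmt9 KO mice, so the genotypes did not overlap. The same held for Abcg2, the efflux pump BCRP, at 14.5, 16.0 and 17.4 TPM in WT and 18.9, 18.3 and 19.8 TPM in Prmt9 KO mice.

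Of the other endothelial genes, Vwf, the clotting factor stored in endothelium, had 13.5, 9.96 and 10.3 TPM in WT and 12.6, 9.45 and 12.03 TPM in Prmt9 KO mice. Ly6c1 and Ly6a, which code for GPI-anchored surface proteins, had means of 82.5 and 27.6 TPM, and Nos3, the endothelial nitric oxide synthase, 6.48 TPM. Foxq1, a forkhead factor, had the lowest mean of the class at 1.36 TPM, and Lef1, a factor through which Wnt signals act, had 3.08 TPM.

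Among mural genes, Pdgfrb, the receptor through which pericytes are recruited, had 11.7, 12.6 and 12.6 TPM in WT and 13.1, 9.78 and 11.3 TPM in Prmt9 KO mice. Notch3, the Notch receptor of mural cells, had 4.91, 6.08 and 6.67 TPM in WT and 6.02, 4.91 and 5.46 TPM in Prmt9 KO mice. The genotypes overlapped for both receptors. Of the pericyte genes, Vtn, which codes for vitronectin, had 101, 86.6 and 92.1 TPM in WT and 99.8, 83.6 and 85.9 TPM in Prmt9 KO mice. Rgs5, a regulator of G protein signals, had 46.0, 48.3 and 50.7 TPM in WT and 54.95, 43.8 and 42.8 TPM in Prmt9 KO mice. In TPM, these 2 genes and Pdgfrb were the steadiest of the class. In CPM, Vtn, Rgs5 and Pdgfrb were each higher in both mice numbered 1 than in the others. Higd1b was high in both mice numbered 1, at 21.8, 12.3 and 11.9 TPM in WT and 17.8, 9.12 and 9.43 TPM in Prmt9 KO mice. Anpep, the aminopeptidase CD13, had 5.38, 4.09 and 5.38 TPM in WT and 3.57, 3.83 and 3.03 TPM in Prmt9 KO mice, so the genotypes did not overlap.

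Of the contractile genes of smooth muscle, Acta2, the smooth muscle actin, was the highest, with 16.5, 14.7 and 19.2 TPM in WT and 26.8, 12.8 and 20.0 TPM in Prmt9 KO mice. Tagln, an actin-binding protein, had 10.1, 15.4 and 16.8 TPM in WT and 18.9, 15.1 and 19.5 TPM in Prmt9 KO mice. Myh11, the smooth muscle myosin heavy chain, varied most of all 36 genes, with an SD of 0.81 on the log2 scale. It had 0.71, 2.87 and 3.21 TPM in WT and 2.06, 2.17 and 2.99 TPM in Prmt9 KO mice, so WT replicate 1 stood alone at the low end. Cnn1, calponin, had 0.40, 0.73 and 0.92 TPM in WT and 1.46, 0.72 and 1.04 TPM in Prmt9 KO mice. Des, the intermediate filament desmin, had 1.09, 1.10 and 1.25 TPM in WT and 0.93, 0.87 and 1.10 TPM in Prmt9 KO mice. In TPM the genotypes overlapped in each of these 5 genes. Col4a1 was even across the mice in TPM, at 46.0, 46.4 and 50.7 TPM in WT and 51.4, 43.8 and 51.1 TPM in Prmt9 KO mice. In CPM it was higher in both mice numbered 1 than in the others.

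**Figure D2:**
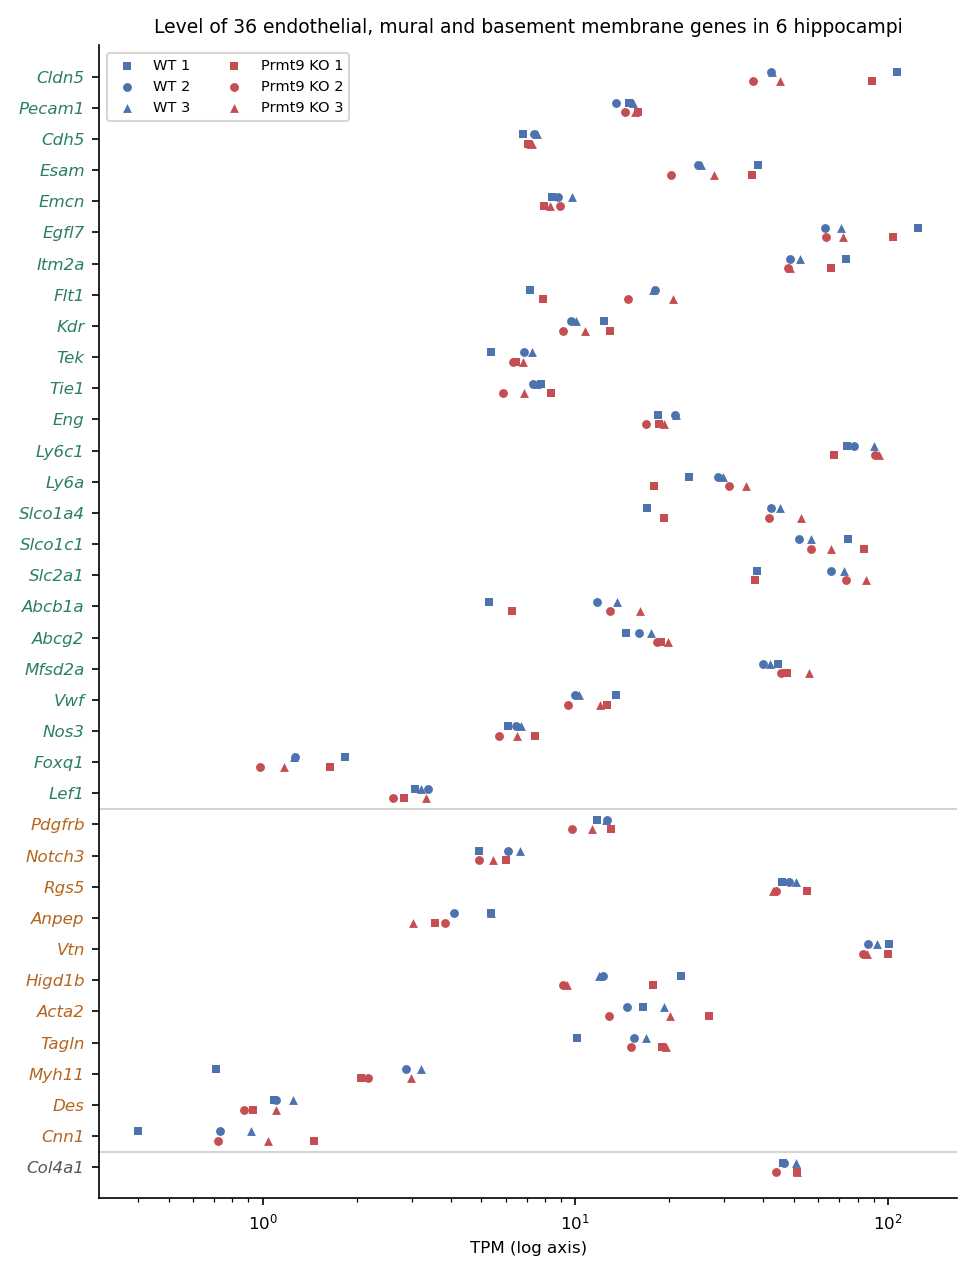
Level of each of the 36 genes in each mouse, in TPM on a log axis (blue: WT, red: Prmt9 KO, square: replicate 1, circle: replicate 2, triangle: replicate 3; green names: endothelial, brown: mural, grey: basement membrane). The squares of both genotypes lie together above the rest for Cldn5 and below it for Flt1, Slco1a4, Slc2a1 and Abcb1a, while WT and Prmt9 KO points overlap for all but Abcg2, Mfsd2a and Anpep.

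The comparison of genotypes asks whether loss of Prmt9 changed the vascular mRNAs. A gene was called where its adjusted p was under 0.01 and it differed by more than 1.5-fold. None of the 36 genes was called (edgeR's quasi-likelihood test, Benjamini-Hochberg adjustment over all 20335 genes tested, percent called over all genes 0%), and none had an unadjusted p below 0.05, which 1.23% of all genes had (0.448% lower and 0.787% higher in Prmt9 KO mice). The lowest unadjusted p was 0.0893, for Des. Prmt9 itself was not called in this edgeR fit (adjusted p = 0.0327), so the lack of a call does not show that a gene was unchanged. DESeq2 called none of the 36 and limma none of the 35 it tested, which left out Cnn1 for its low level. The number that these tools called over all genes is not given here. Each gave 1 gene an unadjusted p below 0.05. It was Des in DESeq2, beside 1.84% of all genes, and Anpep in limma, beside 0.778% on log2(TPM + 1) and 0.751% on log2(TPM + 0.1). The log2 fold changes of Prmt9 KO over WT ran from −0.37 (Des) to 0.36 (Cnn1). They were below 0 for 25 of the 36 genes, beside 53.1% of all genes.

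The median log2 fold change was −0.06 over the endothelial genes and −0.10 over the mural genes, beside −0.01 over all genes tested. Without both mice numbered 1, which leaves 2 mice against 2, these class medians were −0.009 and −0.19. With limma, run in 2 settings, the endothelial median was 0.016 and 0.019, beside 0.053 and 0.059 over all genes. Without WT replicate 1 it was 0.031, beside 0.022 over all genes. The mural median was below 0 under every alternative. In the reported fit, log2 fold changes were below 0 for all 7 genes of junctions and surface and all 5 endothelial receptors (medians −0.21 and −0.09). All 6 transporters had log2 fold changes above 0, with a median of 0.11. The 2 mural receptors and the 4 pericyte genes were below 0, and 4 of the 5 contractile genes were above 0. None of these signs came with a call, and the counts are a description of the fitted values only. Of 20 log2 fold changes followed through the alternatives, companion genes among them, 14 kept their sign. Those of Cldn5, Pecam1, Flt1, Slc2a1, Higd1b and Acta2 changed sign under 1 or more of them.

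How large a difference these mice leave room for varied by gene. The 95% interval of the fold change held 0 for all 36 genes. It lay within 1.5-fold for 14 genes, among them Pecam1 (log2 fold change −0.04, 95% interval −0.47 to 0.39), Cdh5 (−0.10, −0.39 to 0.19), Abcg2 (0.21, −0.07 to 0.50), Mfsd2a (0.13, −0.31 to 0.57) and Lef1 (−0.20, −0.53 to 0.14). It reached 2-fold for 9 genes, which include Cldn5 (−0.30, −1.73 to 1.14), Higd1b (−0.36, −1.31 to 0.58), Acta2 (0.21, −0.63 to 1.04) and Cnn1 (0.36, −0.31 to 1.04). Between these lay Flt1 (−0.04, −0.94 to 0.87), Slc2a1 (0.09, −0.64 to 0.82), Pdgfrb (−0.19, −0.60 to 0.23), Notch3 (−0.26, −0.73 to 0.21) and Des (−0.37, −0.81 to 0.08). Without WT replicate 1, but with KO replicate 1 kept, the log2 fold change of Cldn5 was 0.51, and that of Higd1b 0.03. Without both mice numbered 1 these were −0.04 and −0.37.

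**Figure D3:**
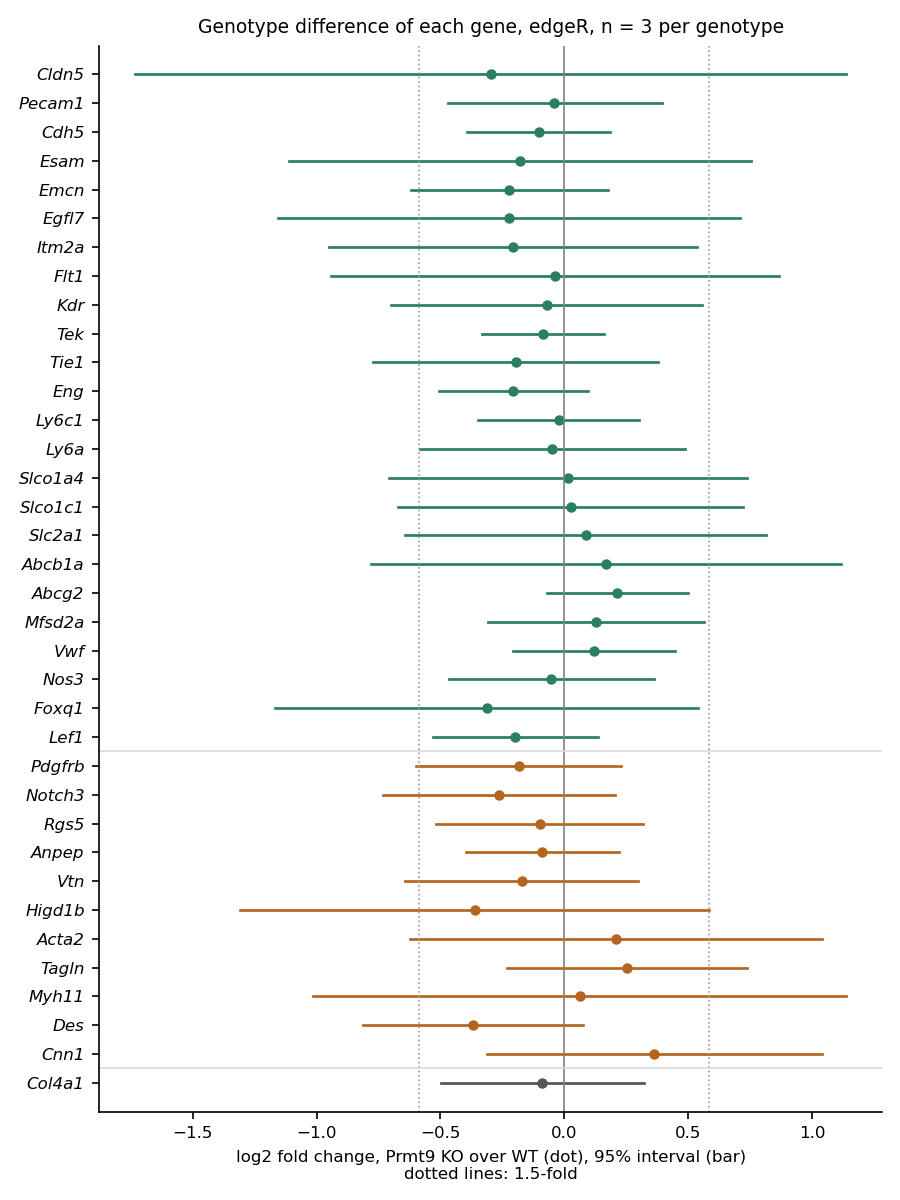
Log2 fold change of Prmt9 KO over WT for each gene (dot) with its 95% interval (bar) from edgeR, n = 3 mice per genotype. Dotted lines mark 1.5-fold. All 36 bars cross 0, and the bar of Cldn5 is the widest of the endothelial genes.

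When the numbers of the mice were used as blocks, again none of the 36 genes was called and the lowest adjusted p was 0.791 (edgeR's quasi-likelihood test, Benjamini-Hochberg). With the block, 9 genes had an unadjusted p below 0.05, 25.0% of the 36 beside 5.73% of all genes. Of these, 7 were lower in Prmt9 KO mice, beside 3.16% of all genes: the endothelial Tie1, Eng and Foxq1 and the mural Pdgfrb, Notch3, Higd1b and Des. The other 2, Abcb1a and Abcg2, were higher, beside 2.58% of all genes. Without the mice numbered 1, 10 of the 36 genes had an unadjusted p below 0.05, beside 16.4% of all genes, in a comparison of 2 mice against 2.

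The 3 genes whose TPM did not overlap between genotypes were chosen by that pattern, so it is a description. KO mice were above WT for Abcg2 and Mfsd2a, beside 5.28% of all genes, and below WT for Anpep, beside 1.38%. In CPM none of the 36 genes was higher in all KO mice, beside 3.85% of all genes, the 3 genes above overlapped, and Lef1 and Des were instead, both lower in Prmt9 KO mice, beside 3.16% of all genes. Lef1 had 6.09, 5.65 and 5.55 CPM in WT and 5.12, 4.44 and 5.51 CPM in Prmt9 KO mice. Des had 1.88, 1.5 and 1.72 CPM in WT and 1.44, 1.15 and 1.36 CPM in Prmt9 KO mice. For Anpep the scale mattered most. Its log2 fold change was −0.09 (95% interval −0.40 to 0.22) on counts and −0.60 on counts scaled for transcript length. The transcript mix of Anpep differed between mice, and 1 coding transcript of it (ENSMUST00000205502) took shares of 0.489, 0.186 and 0.206 of its TPM in WT and of 0.227, 0.084 and 0.000 in Prmt9 KO mice, which overlapped.

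Larger differences were seen between mice of the same genotype. Both mice numbered 1 lay outside the range of the other 4 in TPM and in CPM alike for 14 of the 36 genes. They were above the others for 10 of them, Cldn5, Esam, Egfl7, Itm2a, Kdr, Tie1, Slco1c1, Foxq1, Vtn and Higd1b, beside 18.7% of all genes, and below for 4, Flt1, Slco1a4, Slc2a1 and Abcb1a, beside 30.9%. In TPM alone 11 genes were above and 8 below, beside 19.0% and 45.8% of all genes, and in CPM alone 19 were above and 4 below, beside 32.7% and 31.6%. Cdh5 lay below in TPM and above in CPM. Relative to the mean of replicates 2 and 3 of its genotype, Cldn5 in CPM was 3.23-fold in WT replicate 1 and 2.39-fold in KO replicate 1. Abcb1a was 0.503-fold and 0.469-fold and Flt1 0.514-fold and 0.507-fold in the same mice. Genes of the same class lay on opposite sides, as Kdr and Flt1 did among the VEGF receptors and Slco1c1 and Slco1a4 among the transporters.

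**Figure D4:**
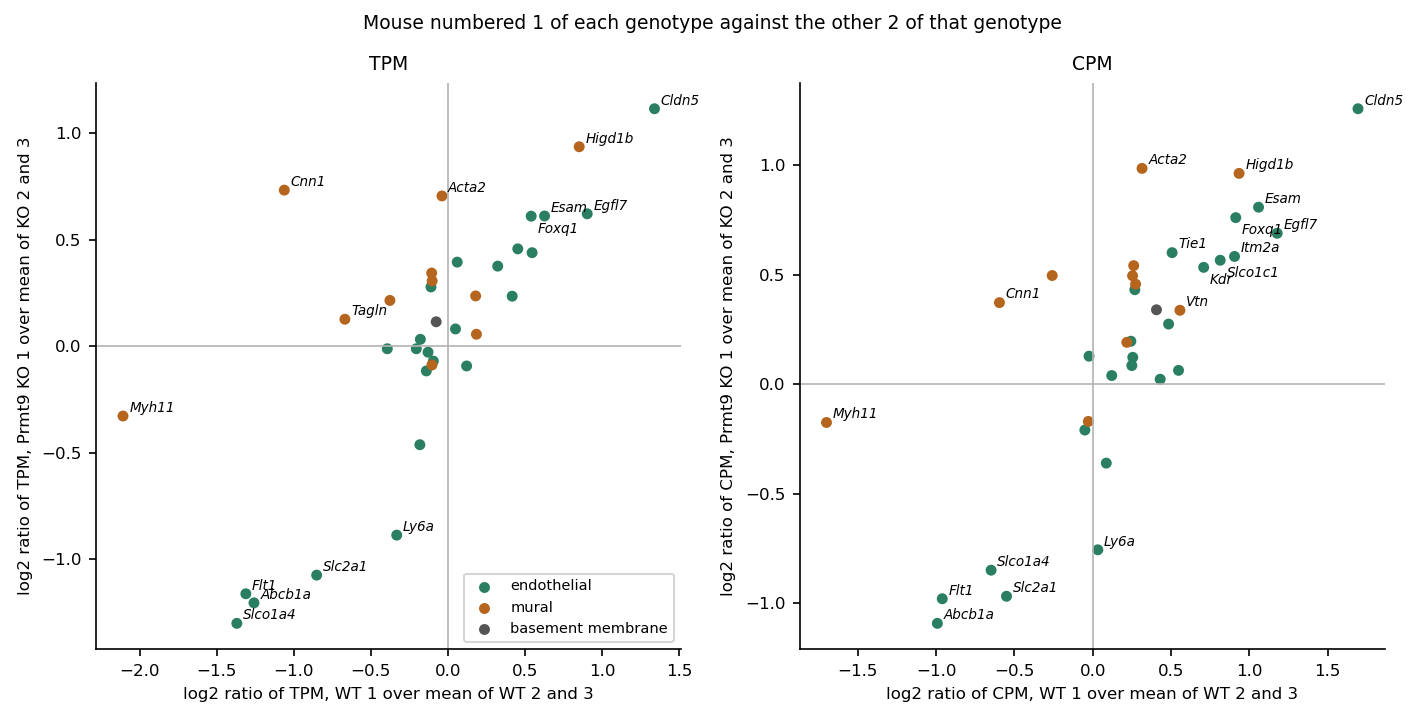
Log2 ratio of the mouse numbered 1 to the mean of the other 2 mice of its genotype, WT on the horizontal and Prmt9 KO on the vertical axis, in TPM (left) and CPM (right). Each point is a gene. Cldn5 lies at the upper right and Flt1, Slc2a1, Slco1a4 and Abcb1a at the lower left in both panels, and Myh11 was low in WT replicate 1 mainly.

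Other cell types differed in the mice numbered 1 too. Of 8 genes of the oligodendrocyte lineage, 6 were below the other 4 mice on both scales, beside 30.9% of all genes, and their summed TPM was 2310 and 1260 in WT replicate 1 and KO replicate 1, against 8386 to 12190 in the others. Neuronal genes were lower for 7 of 9, with sums of 2163 and 2713 TPM against 3473 to 3799 TPM, and astrocyte genes for 5 of 8, with sums of 1685 and 1781 TPM against 2561 to 2816 TPM. Microglial genes were lower for 4 of 8. These counts are to be read beside the same 30.9%. Across 19757 genes, the log2 ratio of the mouse numbered 1 to the others of its genotype in CPM went down with transcript length, with a Spearman rho of −0.29 in WT and −0.21 in Prmt9 KO mice, and up with GC content, with rho of 0.20 and 0.12. The part of cell composition, length or GC content in the vascular values was not tested.

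The pathways that act on these vessels were followed by lists of companion genes. In a list of 24 genes of vascular signalling, 20 had log2 fold changes below 0, beside 53.1% of all genes, none was called, and 1 had an unadjusted p below 0.05, beside 1.23% of all genes. This was Apln, the peptide ligand of sprouting endothelium, with 11.1, 15.1 and 14.2 TPM in WT and 9.93, 13.3 and 11.6 TPM in Prmt9 KO mice (log2 fold change −0.28, 95% interval −0.56 to −0.004; adjusted p = 1, edgeR). The ligand Vegfa had 82.1 to 149.6 TPM in WT and 88.7 to 168 TPM in Prmt9 KO mice, overlapping, and was lowest in the mice numbered 1. Pdgfb, the ligand of Pdgfrb, had 28.5 to 31.1 TPM in WT and 29.1 to 32.6 TPM in Prmt9 KO mice. Of 12 genes of Wnt and norrin signalling, which induces the barrier, none had an unadjusted p below 0.05, and their log2 fold changes ran from −0.19 to 0.04. None of 11 further endothelial transcription factors and none of 23 further genes of barrier junctions and transport had an unadjusted p below 0.05 either, with medians of −0.08 and −0.02.

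Of 10 genes of arteries and veins, 7 had log2 fold changes above 0, with a median of 0.085 over the list. An unadjusted p below 0.05 was found for 1 of them, which went the other way, beside 1.23% of all genes. Gkn3, which marks arterial endothelium of the brain, had 5.23, 7.80 and 6.07 TPM in WT and 4.82, 4.09 and 3.41 TPM in Prmt9 KO mice (log2 fold change −0.68, 95% interval −1.22 to −0.14; adjusted p = 1, edgeR). Its KO values all lay below WT, which 1.38% of all genes showed. In 18 further mural genes the median log2 fold change was −0.12 and in 12 further genes of the basement membrane it was −0.10, and none of the 30 genes of these lists had an unadjusted p below 0.05.

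Genes of cells that lie beside or within vessels bear on the same tissue. All 7 red cell genes had log2 fold changes below 0, with a median of −1.09, and 2 had an unadjusted p below 0.05, both lower, beside 0.448% of all genes, but none was called (adjusted p = 1, edgeR). With the numbers of the mice used as blocks, 6 of the 7 had an unadjusted p below 0.05, beside 3.16% of all genes. All 6 were lower in Prmt9 KO mice, and the lowest adjusted p was 0.791 (edgeR). Hbb-bs, an adult beta globin, had 1349, 1762 and 2687 TPM in WT and 472, 1454 and 891 TPM in Prmt9 KO mice (log2 fold change −1.09, 95% interval −2.06 to −0.13). Hbb-bt had 131, 256 and 356 TPM in WT and 44.9, 176 and 100 TPM in Prmt9 KO mice (−1.25, −2.46 to −0.04). The genotypes overlapped for both, and how the blood left in the tissue at dissection bears on the values was not tested. Of 12 fibroblast and meningeal genes, Aldh1a2, an enzyme of retinoic acid synthesis in the meninges, had an unadjusted p below 0.05, with 2.77, 4.40 and 4.56 TPM in WT and 5.74, 5.29 and 5.62 TPM in Prmt9 KO mice (0.46, 0.09 to 0.83; adjusted p = 1, edgeR). The summed TPM of 9 choroid plexus genes was 7300, 620 and 2028 in WT and 878, 2359 and 3371 in Prmt9 KO mice, and the genotypes overlapped.

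The study is about splicing, so the use of transcripts was compared as well. Of the 36 genes, 32 had 2 or more transcripts past the filter, and none was called (edgeR's diffSpliceDGE with a Simes test per gene, adjusted p below 0.01, which 0.162% of 13561 genes reached) or had an unadjusted p below 0.05, which 1.67% of all genes had. limma's diffSplice called none of them either, and it called 3 genes among all it tested. The lowest unadjusted p among them was 0.277.

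For Flt1, the long form took 0.575, 0.580 and 0.587 of the TPM of the gene in WT and 0.584, 0.622 and 0.596 in Prmt9 KO mice. The short form took 0.364, 0.372 and 0.368 in WT and 0.384, 0.331 and 0.343 in Prmt9 KO mice. These shares were close in all 6 mice, also in the mice numbered 1, where the level of the gene was low. For Eng, by contrast, the long form took 0.467, 0.194 and 0.167 in WT and 0.345, 0.234 and 0.231 in Prmt9 KO mice, highest in both mice numbered 1.

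The leading transcript was annotated as protein-coding for 34 of the 36 genes. For Slco1c1 it was the decay transcript, with shares of 0.387, 0.508 and 0.503 in WT and 0.499, 0.546 and 0.535 in Prmt9 KO mice. The coding transcript took 0.432, 0.400 and 0.429 in WT and 0.225, 0.314 and 0.314 in Prmt9 KO mice, or 0.420 ± 0.017 and 0.284 ± 0.051 (SD, n = 3 each), without overlap. This difference had an unadjusted p of 0.286 and an adjusted p of 1 (edgeR). Shares of KO mice lay all below or all above the WT mice for 3 of 87 transcripts of the 36 genes with a mean share of at least 0.05. They were lower for the coding transcript of Slco1c1 and for the leading transcript of Tek (ENSMUST00000071168), beside 4.52% of all transcripts of that share, and higher for 1 coding transcript of Anpep (ENSMUST00000049004), beside 4.92%. The decay transcript of Slc2a1 took 0.495, 0.401 and 0.432 in WT and 0.538, 0.452 and 0.424 in Prmt9 KO mice, beside 0.474, 0.581 and 0.553 and 0.454, 0.529 and 0.557 for its coding transcript.

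**Figure D5:**
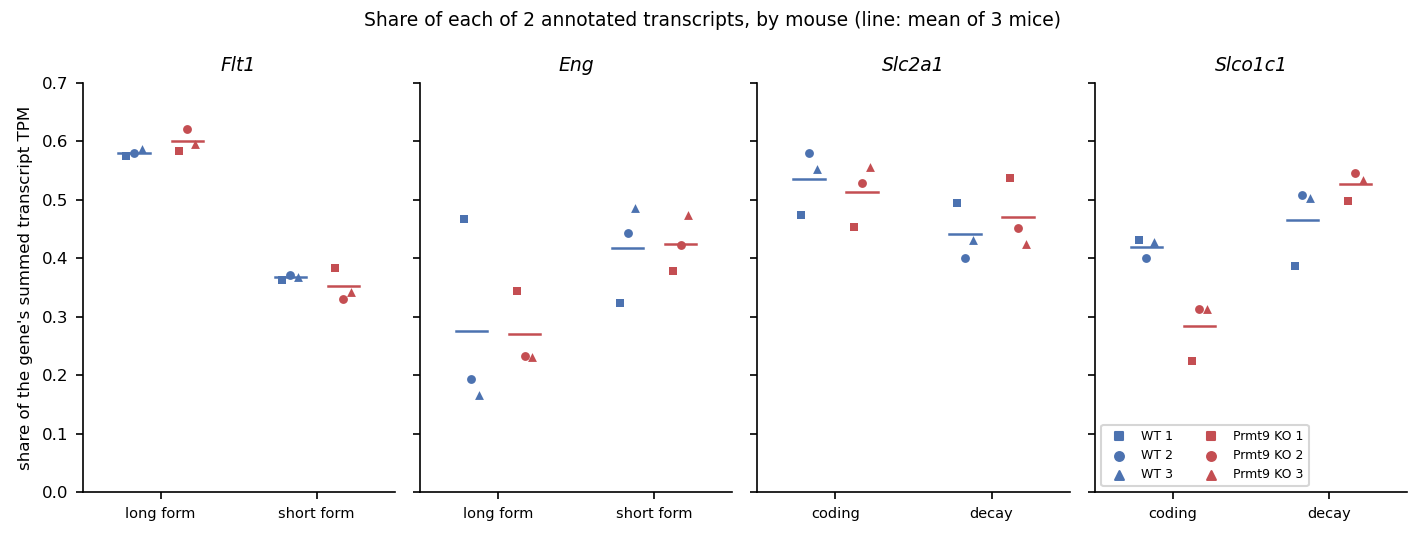
Share of each of 2 annotated transcripts in the summed TPM of its gene, for Flt1, Eng, Slc2a1 and Slco1c1 in each mouse (points; line: mean of 3 mice; the same colours and marks by mouse as in the plot of levels). WT and Prmt9 KO points are apart for the coding transcript of Slco1c1 and overlap for both forms of Flt1.

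For Egfl7, an endothelial cell secreted factor with 19 annotated transcripts, the leading transcript, ENSMUST00000172683, was annotated as a retained intron and held a mean share of 0.147. It was the lowest share of a leading transcript among the 36 genes, before those of Cnn1 (0.325) and Anpep (0.326), so the estimates for these genes are split over many transcripts. Some genes also share sequence with others. Of the stretches of 31 bases in the leading transcript, 57.1% of Ly6c1 were also found in other genes, most of them in Ly6c2, and 24.8% of Abcb1a, most of them in Abcb1b. For Foxq1 it was 65.9%, Tagln 53.8%, Lef1 34.2%, Nos3 25.2% and Ly6a 22.1%. Stretches were matched on both strands, so genes on the opposite strand count as well. The values of these genes may rest in part on sequence that other genes hold, and how far this moved them was not tested. Ly6c2 was at 0.25 to 1.19 TPM in all mice, and Abcb1b at 3.61 to 4.43 TPM.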

How the data were processed

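Hippocampus RNA of 3 WT and 3 Prmt9 KO mice was analysed. The authors had deposited estimated counts and TPM per transcript from kallisto (version 0.46.0 per the submitters' processing notes, which also name STAR 2.7.1a) and TPM summed per gene, without pooling. TPM is scaled within each mouse, so a change in abundant genes moves all others. Of 118783 transcripts, 116710 matched GENCODE M21. Estimated counts were summed per gene and rounded. Genes were tested with edgeR 4.0.16 (quasi-likelihood, TMM, filterByExpr) and called where the adjusted p was under 0.01 with over 1.5-fold change. The use of transcripts was examined by diffSpliceDGE. CPM are TMM-scaled. Alternatives used DESeq2 1.42.0 and limma 3.58.1 on log2(TPM + 1) and log2(TPM + 0.1), at a mean TPM of at least 1. Scripts were tested on simulated data in which the mice numbered 1 were not set apart. This does not show how the tests behave in these mice. Motif and promoter sequences were not used here.

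Groups and numbers were taken from the labels. Same-numbered mice deviated together over 20335 genes (correlations of 0.552, 0.417 and 0.378, each above 0.1), and the numbers were used as blocks in an alternative fit. Mice 2 and 3 of different numbers also deviated together (0.409 and 0.396). Deviations were taken from the mean of the 3 mice of a genotype. With the mice numbered 1 apart, those of mice 2 and 3 go together whatever the pairing. The correlations therefore cannot show that the numbers pair mice. The labels do not say what a number shares, and p-values measure the spread between these mice. The 36 genes, all lists and the alternatives were chosen with earlier results of these data known. Values of every mouse are given for 18 genes set by symbol, for the 3 genes of each class with the largest and the 3 with the smallest SD of log2 TPM, and for companion genes with an unadjusted p below 0.05; others were chosen after their values were seen. Stretches of 31 bases were compared on both strands. Intervals are of the edgeR fit, at 95%.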

Additional observations from a re-analysis of the deposited data

How the results depend on the processing

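No alternative called any of the 36 genes it tested, for level (15 alternatives, on 36 genes, or 35 without Cnn1 with limma) or for transcript usage (12 alternatives, on 32 genes, or 26 with a minimum of 10 counts in every mouse). Over all genes, the usage alternatives called from 1 gene, with that minimum, to 230 genes, without both mice numbered 1. For level, the numbers called over all genes are not given here. The number of genes with an unadjusted p below 0.05 was 0 in the reported fit, beside 1.23% of all genes. It was 1 with DESeq2, with length-scaled counts and with limma at either pseudocount, beside 1.84%, 1.26%, 0.778% and 0.751%. It was 9 with the replicate block (5.73% of all genes) and 9 with a term that set the mice numbered 1 apart (9.7%). Without both mice numbered 1 it was 10 (16.4%), and it was 0 to 2 when 1 mouse was left out (0.686% to 3.35%). The block changed no call. The fall of Prmt9 passed the adjusted threshold with DESeq2 (−1.71), with that term (−1.71) and without the mice numbered 1 (−1.67) only. Genes without overlap of TPM were 2 higher and 1 lower in Prmt9 KO mice, beside 5.28% and 1.38% of all genes. They became 0 and 2 in CPM, beside 3.85% and 3.16%. Without the mice numbered 1, which leaves 2 mice against 2, they were 5 and 11, beside 23.6% and 24.7%. When 1 mouse was left out they ranged from 2 to 7 and from 1 to 7, beside 7.89% to 14.9% and 2.35% to 18.8%. Of 20 log2 fold changes given, 14 kept their sign under every alternative run. Pecam1 turned to 0.048 without the mice numbered 1 and to 0.064 and 0.068 with limma, Flt1 to 0.016 and 0.019 with limma, and Acta2 to −0.083 without the mice numbered 1. When 1 mouse was left out, values ran from −0.84 to 0.51 for Cldn5, −0.16 to 0.15 for Pecam1, −0.34 to 0.23 for Flt1, −0.13 to 0.35 for Slc2a1, −0.19 to 0.47 for Acta2 and −0.751 to 0.026 for Higd1b. Cldn5 and Higd1b turned without WT replicate 1 alone. The causes were not tested. The lowest count of a mouse was 66 for Cnn1, the lowest of the 36 genes.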

Other observations

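Several companion genes of brain vessels followed the mice numbered 1 in both genotypes. Aplnr, the receptor of apelin, had 5.64 and 7.22 TPM in WT replicate 1 and KO replicate 1 and 0.74 to 1.45 TPM in the other 4 mice. The glutamine carrier Slc38a5 had 13.2 and 15.8 TPM against 5.48 to 6.47 TPM, the gap junction gene Gja4 7.49 and 6.97 TPM against 3.02 to 3.29 TPM, and the laminin gene Lama4 9.79 and 10.8 TPM against 4.22 to 4.83 TPM. The pericyte genes Kcnj8, at 6.39 and 5.14 TPM against 2.89 to 3.36 TPM, and Ifitm1, at 14.3 and 12.4 TPM against 6.53 to 9.55 TPM, were high in the same mice. On the low side, Mcam had 13.0 and 14.5 TPM against 24.7 to 34.5 TPM and Mylk 2.68 and 4.17 TPM against 8.30 to 8.77 TPM. These genes were chosen after their values were seen.

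The lists went both ways in these mice. On both scales, 6 of the 18 further mural genes were above the other 4 mice and 6 below, as were 6 and 6 of the 23 further genes of junctions and transport, beside 18.7% and 30.9% of all genes. Of the 12 fibroblast and meningeal genes, 6 were above and 0 below, with Col3a1 at 21.8 and 24.1 TPM against 9.47 to 10.7 TPM.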
